A study of Homo sapiens with 32 samples.

Results

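HTR7, PKIB, PPP3CA, TNIK, PDLIM5, CNTNAP3B and VGF are 7 of the 60660 gene identifiers counted in 32 poly(A)-selected RNA-seq libraries of HCT116 cells. They are signalling genes selected on the measured values themselves: each had lower counts in the DMSO libraries of IGF2BP3 knockout clones than in those of parental cells. That contrast is therefore given as a description without a test, and tests are kept to other contrasts, some of which reuse its libraries. By its title, the study addressed the role of IGF2BP3, an RNA-binding protein, in RNA metabolism when unfolded proteins build up in the endoplasmic reticulum. Tunicamycin, which blocks N-linked glycosylation of proteins, brings on that stress.

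HCT116 is a human colorectal carcinoma line. Every line here, parental and knockout, carried the Tet-OsTIR1-PURO background, in which the plant protein OsTIR1 is expressed when doxycycline is added. IGF2BP3 was disrupted with Cas9 in clones A3, E4 and D12, and IGF2BP2, a gene of the same family, in clones B7, F6 and G6. Each clone grew from 1 sorted cell, so each clone is 1 line. Parental cells were represented by 2 samples (parental sample 1 and parental sample 2). Every line had 2 libraries in DMSO and 2 in tunicamycin, which gives 4 parental, 6 IGF2BP3 knockout and 6 IGF2BP2 knockout libraries per treatment. Tunicamycin was given at 5 µg/mL for 4 h to parental cells and to the IGF2BP3 clones. The labels state neither dose nor time for B7, F6 and G6. Nothing in the labels says that the 2 libraries of a line came from separate cultures, so p-values measure the spread between these libraries, which may in part be technical.

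The 7 genes belong to several signalling routes. HTR7 is a serotonin receptor coupled to Gs, which raises cyclic AMP and so activates protein kinase A, and PKIB encodes an inhibitor of that kinase. PPP3CA is a catalytic subunit of calcineurin, the calcium-dependent phosphatase that sends NFAT proteins to the nucleus, TNIK is a germinal centre kinase that works with TCF4 and beta-catenin in Wnt signalling, and PDLIM5 is a PDZ and LIM domain scaffold that holds kinases at the actin cytoskeleton. CNTNAP3B belongs to the contactin-associated, neurexin-like membrane proteins, and VGF encodes a secreted neuropeptide precursor whose promoter is a textbook target of the cyclic AMP response factor CREB.

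The guides are shown because the clones of 1 genotype differ in the site that was cut. Each is written 5′ to 3′ as the submitters gave it, followed in capitals by the PAM, the 3 bases that Cas9 requires next to its site, which was read from the GENCODE 29 transcript. All 4 guides read opposite to the transcript and lie in coding exons on GRCh38.
IGF2BP3, clones A3 and E4, exon 11 of 15, chr7:23319200-23319219: tggcaccgactgatagagctGGG
IGF2BP3, clone D12, exon 1 of 15, chr7:23469990-23470009: acgcgtagccagtcttcaccAGG
IGF2BP2, clones B7 and F6, exon 1 of 16, chr3:185824895-185824914: gagctgccggaggtcgtcggCGG
IGF2BP2, clone G6, exon 1 of 16, chr3:185824837-185824856: aggcgtagccggacttcagcAGG

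Promoters of 6 members were found in the RefSeq table for GRCh38.p14, as 9 annotated starts. VGF was the only member with the full cyclic AMP response element, the letters TGACGTCA (its own reverse complement), which began 79 bases before the start and is held by 1.85% of all 35116 promoters of the same length. The half-site TGACG, searched on both strands and contained in the full element, was found at starts of VGF, PKIB and CNTNAP3B and in 24.6% of all promoters. The CCAAT box letters, on both strands, were found for TNIK and VGF and in 34.6% of all promoters. The last 100 bases before the start of VGF and before the first of 3 annotated starts of PKIB are shown for comparison, read along each gene's strand, with half-sites in capitals; in VGF 2 overlapping half-sites make up the full element.
VGF, minus strand, chr7:101165570-101165669: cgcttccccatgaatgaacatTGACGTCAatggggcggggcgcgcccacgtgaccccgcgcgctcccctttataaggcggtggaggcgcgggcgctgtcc
PKIB, plus strand, chr6:122471821-122471920: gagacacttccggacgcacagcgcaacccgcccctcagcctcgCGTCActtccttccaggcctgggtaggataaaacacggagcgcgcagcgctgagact

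Library totals ran from 16651438 to 24913021 counts. Levels are given as CPM, the count scaled to a common library total, after TMM normalization, a scaling that sets the bulk of genes level across libraries. The replicate number also set libraries apart, since between 21259 and 23139 genes were detected under number 1 and between 23423 and 24267 under number 2. The control libraries of clone G6 are called control in their titles and tunicamycin in their treatment label; here the title was followed, so they count as DMSO, and the tests that use them were repeated without them. Of 9 colorectal epithelial markers, KRT8 was the highest in every group, and the summed level of the list was 3053 to 5557 CPM over all libraries, although 2 or 3 of the 9 averaged under 1 CPM. The 9 neuroendocrine or neuronal markers summed to 27.9 to 48.0 CPM, with ENO2 the highest and INSM1 and ELAVL4 among those at 0 in every library. In bulk RNA, fewer cells that express a gene and less of its RNA per cell cannot be told apart.

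IGF2BP3 transcript was reduced, not absent, in its knockout clones. Its mean in DMSO was 76.6 ± 6.36 CPM (SD, n = 4) for the parental samples, and the clone means were 21.3 CPM in A3, 20.2 CPM in E4 and 41.5 CPM in D12, the clone cut in exon 1. In the IGF2BP2 knockout clones IGF2BP3 averaged 65.5 CPM in B7, 68.7 CPM in F6 and 94.7 CPM in G6. IGF2BP2 averaged 176 ± 17.9 CPM (SD, n = 4) in DMSO-treated parental samples and 81.9 CPM in B7, 91.7 CPM in F6 and 85.5 CPM in G6. Transcript level is not a measure of protein, which was not analysed here.

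HTR7, the serotonin receptor (ENSG00000148680_16, chr10:90740823-90857698, minus strand; positions of genes are from GENCODE 29 on GRCh38), stood at 58.4, 66.0, 62.7 and 62.2 CPM in the 4 parental DMSO libraries. The 6 IGF2BP3 knockout DMSO libraries ran from 29.2 to 43.3 CPM with a median of 35.8 CPM, so no library of one group reached the other. These are the libraries on which the gene was chosen to be lower. In tunicamycin the parental libraries held 58.5, 59.5, 61.4 and 58.7 CPM and the knockout libraries 27.0 to 36.0 CPM with a median of 32.6 CPM. Again the groups did not overlap. On the log2 scale the difference was -0.91 (SE 0.082, edgeR adjusted p 0.000333, from a quasi-likelihood fit of 14626 genes with Benjamini-Hochberg correction). The IGF2BP2 knockout clones parted from each other: in DMSO HTR7 averaged 29.7 CPM in F6, 65.1 CPM in G6 and 106 CPM in B7. F6 thus lay below every parental library, the 2 libraries of G6, at 58.3 and 71.9 CPM, just below and above all of them, and B7 at 170% of the parental mean.

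PKIB, the protein kinase A inhibitor (ENSG00000135549_15, chr6:122471917-122726373, plus strand), had the largest difference of the 7 genes and low counts, 61 to 567 per library in the parental and IGF2BP3 knockout groups. The parental DMSO libraries held 23 and 23.1 CPM in replicate 1 and 12.6 and 13.3 CPM in replicate 2. The 6 IGF2BP3 knockout DMSO libraries held 3.47 to 7.08 CPM with a median of 4.55 CPM, all under the lowest parental library. In tunicamycin the parental values were 19.7, 13.2, 23.1 and 11.6 CPM and the knockout values 2.79 to 6.93 CPM with a median of 4.75 CPM. The log2 fold change in tunicamycin was -1.83 (SE 0.221, edgeR adjusted p 0.00181). Since the level moved with the replicate number in parental cells, the difference was also taken within each number: the mean log2 CPM of the knockout libraries lay below that of the parental ones by -1.99 in replicate 1 and by -1.61 in replicate 2. Clone E4 was the lowest, at 3.57 CPM in DMSO, against 4.55 CPM in D12 and 6.45 CPM in A3. The IGF2BP2 knockout clones lay between these clones and parental cells, with 8.46 CPM in B7, 13.4 CPM in F6 and 14.9 CPM in G6, and single libraries of F6 and G6 overlapped the parental range.

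PPP3CA, the calcineurin subunit (ENSG00000138814_17, chr4:101023409-101348278, minus strand), had the smallest difference and the tightest clones. Parental DMSO libraries held 293, 238, 282 and 238 CPM, and the 6 IGF2BP3 knockout libraries 172 to 201 CPM with a median of 186 CPM. In tunicamycin the parental libraries held 273, 235, 275 and 228 CPM and the knockout libraries 181 to 205 CPM with a median of 187 CPM. Every knockout library was below every parental one in both treatments. The log2 fold change in tunicamycin was -0.42 (SE 0.059, edgeR adjusted p 0.00475), and the means of the 3 clones in DMSO were 182 CPM in A3, 183 CPM in E4 and 191 CPM in D12. Among IGF2BP2 knockout clones F6 was lower still, at 165 CPM in DMSO, while B7 at 234 CPM and G6 at 260 CPM overlapped the parental libraries.

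TNIK, the germinal centre kinase (ENSG00000154310_17, chr3:171061339-171460408, minus strand), was the member with the lowest share of its parental level in IGF2BP2 knockout clones, in B7 and F6. In DMSO the parental libraries held 81.2 and 81.9 CPM in replicate 1 and 59.5 and 56.8 CPM in replicate 2. The IGF2BP3 knockout libraries held 29.9 to 42.2 CPM with a median of 32.9 CPM. The clone means were 30.3 CPM in A3, 38.8 CPM in E4 and 34.2 CPM in D12, against 21.8 CPM in B7, 18.6 CPM in F6 and 71.4 CPM in G6. B7 and F6 were therefore below every IGF2BP3 knockout library, while G6 lay in the parental range. In tunicamycin the parental libraries held 86.4, 67.0, 88.8 and 57.5 CPM and the IGF2BP3 knockout libraries 31.7 to 44.1 CPM with a median of 35.4 CPM. The difference between these groups was -1.01 on the log2 scale (SE 0.119, edgeR adjusted p 0.00148), and within replicate numbers it was -1.13 in replicate 1 and -0.86 in replicate 2.

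PDLIM5, the scaffold (ENSG00000163110_15, chr4:94451857-94668227, plus strand), stood at 304, 269, 324 and 263 CPM in parental DMSO libraries and at 127 to 157 CPM in IGF2BP3 knockout libraries, with a median of 149 CPM. In tunicamycin the parental libraries held 274, 232, 273 and 224 CPM and the knockout libraries 114 to 150 CPM with a median of 140 CPM. The groups were far apart in both treatments, and the log2 fold change in tunicamycin was -0.89 (SE 0.083, edgeR adjusted p 0.000333). Clone D12 was the lowest of the 3, at 131 CPM in DMSO, against 149 CPM in A3 and 157 CPM in E4. In IGF2BP2 knockout clones PDLIM5 spanned the widest range in CPM of any member: 157 CPM in F6, 258 CPM in B7 and 391 CPM in G6. Both DMSO libraries of G6, at 407 and 375 CPM, lay above all 4 parental libraries.

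CNTNAP3B, the neurexin-like membrane protein (ENSG00000154529_15, chr9:41890314-42129510, minus strand), is one of several near-identical gene copies, and 36.0% of the 100-base windows of its longest GENCODE 29 transcript also occur in transcripts of other genes, 26.0% in CNTNAP3P2. Its counts are therefore uncertain, since the way shared reads were assigned is not given. In DMSO the parental libraries held 17.7, 16.6, 20.7 and 15.8 CPM and the IGF2BP3 knockout libraries 5.79 to 8.58 CPM with a median of 8.13 CPM. In tunicamycin the values were 18.1, 19.2, 21.1 and 19.7 CPM in parental libraries and 7.59 to 10.8 CPM in knockout libraries, with a median of 9.58 CPM. The groups did not overlap, and the log2 fold change in tunicamycin was -1.06 (SE 0.097, edgeR adjusted p 0.000333). Clone F6 was again as low as the IGF2BP3 knockout clones, at 6.73 CPM in DMSO, while B7 averaged 14.3 CPM and G6 17.8 CPM.

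VGF, the neuropeptide precursor (ENSG00000128564_7, chr7:101162509-101165593, minus strand), stood at 39.3, 38.3, 36.1 and 40.9 CPM in parental DMSO libraries and at 15.3 to 22.1 CPM in IGF2BP3 knockout libraries, with a median of 19.8 CPM. In tunicamycin the parental libraries held 37.7, 45.1, 47.4 and 45.8 CPM and the knockout libraries 15.2 to 25.5 CPM with a median of 20.2 CPM. No knockout library reached a parental one, and the log2 fold change in tunicamycin was -1.12 (SE 0.125, edgeR adjusted p 0.00109). The IGF2BP2 knockout clones divided in another way than for the 5 genes low in F6. VGF averaged 15.9 CPM in B7, 42.8 CPM in F6 and 44.2 CPM in G6 in DMSO, so B7 was at the level of the IGF2BP3 knockout clones and both other clones were slightly above the 4 parental libraries. The 9 neuroendocrine or neuronal markers, a list without VGF, summed to 35.9 to 45.7 CPM in parental and 28.8 to 38.1 CPM in IGF2BP3 knockout DMSO libraries. Most of these sums was ENO2, which averaged 37.1 CPM in parental and 30.1 CPM in knockout DMSO libraries. TUBB3 averaged 2.32 and 2.38 CPM, SYP 0.838 and 0.877 CPM, and SNAP25 0.287 and 0.120 CPM. Of the 9 markers 3 were tested and 0 called, and their part in the VGF difference was not tested.

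**Figure D1:**
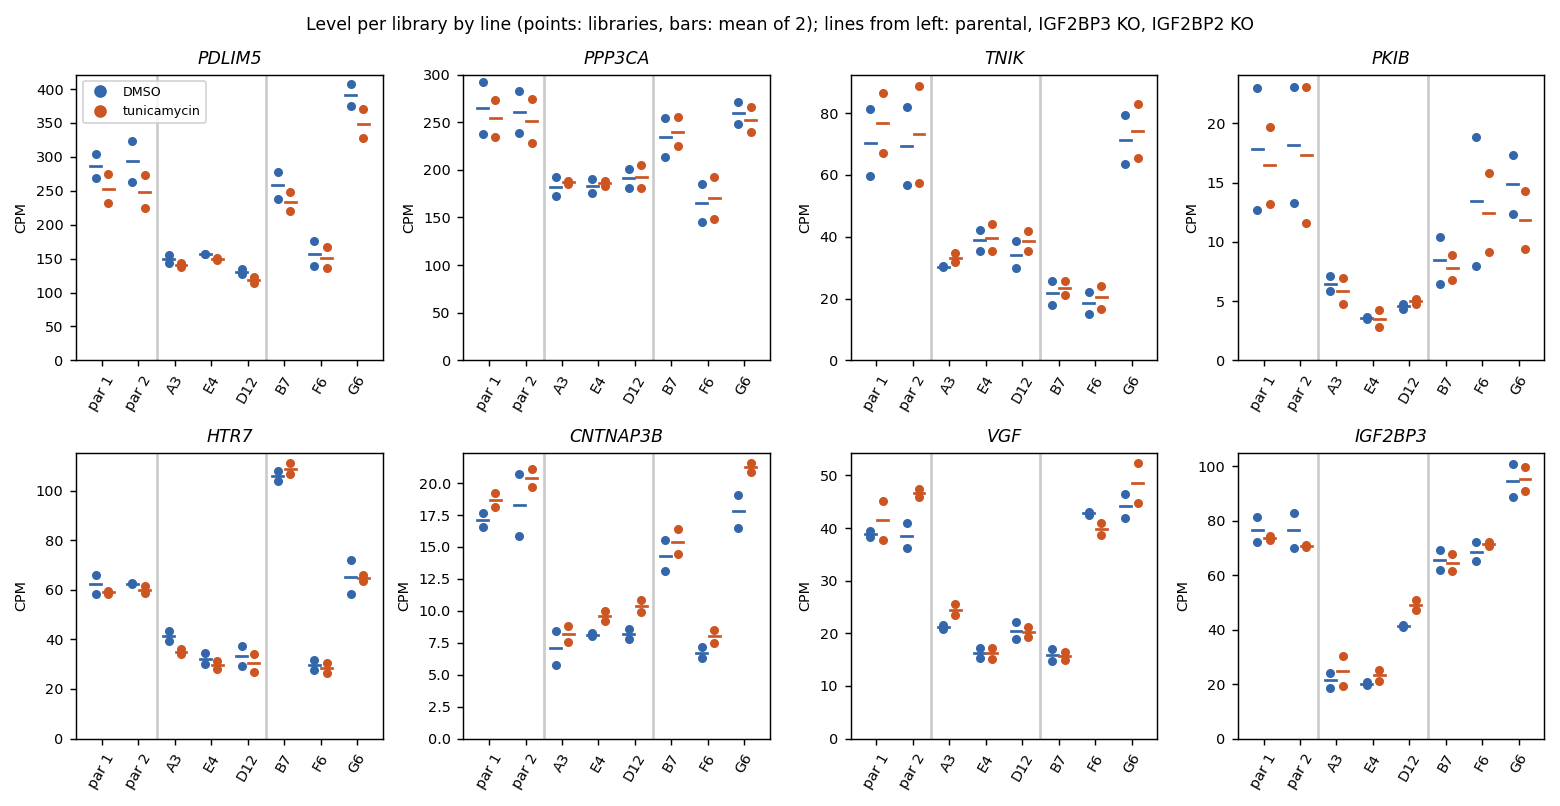
Level of each of the 7 genes and of IGF2BP3 in every library, in CPM on axes that start at 0, by line (par 1 and par 2 are the parental samples); blue points are DMSO, orange points tunicamycin and bars the mean of 2 libraries. Libraries of A3, E4 and D12 lie below all parental libraries in each of the 7 panels, while B7, F6 and G6 part from each other.

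In the contrast that chose the genes, IGF2BP3 knockout against parental cells in DMSO, the fitted log2 fold changes were -0.81 (SE 0.099) for HTR7, -1.89 (SE 0.210) for PKIB, -0.51 (SE 0.058) for PPP3CA and -1.02 (SE 0.116) for TNIK. For PDLIM5 the value was -0.995 (SE 0.069), for CNTNAP3B -1.19 (SE 0.103) and for VGF -1.005 (SE 0.093). Over all 14568 genes tested in this contrast, 1.10% were called lower and 0.515% higher at an adjusted p under 0.05.

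Whether the same genes are lower under stress was examined in the tunicamycin libraries. The rule of choice names only DMSO libraries, but these come from the same clones. The calls are therefore not independent of the choice. There 7 of the 7 genes were called lower in IGF2BP3 knockout than in parental cells, where 0.602% of all 14626 genes tested were called lower and 0.116% higher. Those shares are of genes not chosen for being low in these clones. The share among genes already lower in DMSO was not computed. The difference was -0.42 to -1.83 on the log2 scale, and 6 of 6 knockout libraries lay below the 4 parental libraries for every member. The same measure was taken per clone over the 14568 genes tested in DMSO. Both tunicamycin libraries lay below all 4 parental ones for 7.01% of genes in A3, 11.3% in E4 and 10.3% in D12. The share of all genes for the clones together, or within a replicate number, was not computed. Within replicate 1 libraries alone the differences of mean log2 CPM ran from -1.99 to -0.50, and within replicate 2 from -1.61 to -0.34, with every knockout library below both parental ones for 7 of 7 genes in each. All 7 stayed called when any clone or any parental library was left out and when the 2 libraries of a line were summed. In a fit of all 32 libraries, in which the unlike IGF2BP2 knockout clones enter the estimate of the spread, 4 stayed called, and the edgeR adjusted p was 0.158 for PPP3CA, 0.295 for TNIK and 0.243 for HTR7.

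The change of the knockout difference between treatments, which reuses the DMSO libraries, is given as a value only. It ran from -0.11 (SE 0.106) for VGF to 0.13 (SE 0.122) for CNTNAP3B on the log2 scale, and for PKIB it was 0.08 (SE 0.295). These values are smaller than the knockout differences of every member, but the errors for PKIB and TNIK (0.02, SE 0.177) are wide.

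**Figure D2:**
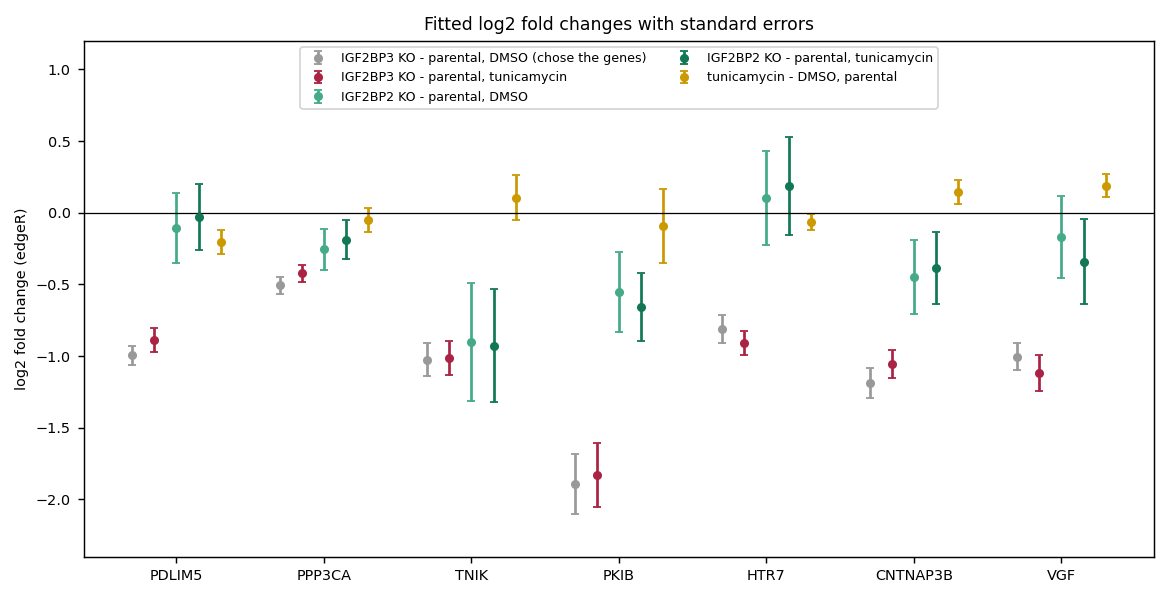
Fitted log2 fold changes of the 7 genes in 5 contrasts, with the standard error as bars. Grey points are the contrast that chose the genes; the red points of the same clones in tunicamycin all lie below 0, while the green points of the IGF2BP2 knockout have longer bars and the yellow points of tunicamycin in parental cells lie near 0.

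The IGF2BP3 knockout clones were compared with one another over both treatments, with treatment as a covariate. These libraries include the DMSO ones on which the genes were chosen to be low. A choice for low values across the clones can narrow the spread between them, so the p-values are not independent of the choice. Of the members 3 differed among A3, E4 and D12 where 7.63% of all genes did: PDLIM5 with a span of 0.30 between the highest and the lowest clone on the log2 scale (edgeR adjusted p 0.00159), PKIB with 0.79 (edgeR adjusted p 0.0151) and VGF with 0.49 (edgeR adjusted p 0.00564). D12 was lowest for PDLIM5 and E4 for PKIB and VGF, so no clone was lowest throughout. The spans of HTR7 (0.30), TNIK (0.31), CNTNAP3B (0.28) and PPP3CA (0.06) did not pass. Without E4, 0 of the 7 were called between A3 and D12. PDLIM5 was also lost without D12 (edgeR adjusted p 0.521) and PKIB without A3 (edgeR adjusted p 0.106). With the replicate number as a block TNIK (adjusted p 0.0114 by edgeR) and HTR7 (adjusted p 0.00332 by edgeR) passed as well.

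For all members but PKIB the spans were wider among the IGF2BP2 knockout clones, whose libraries the choice did not use. Called between B7, F6 and G6 were 6 of the 7 genes, where 26.4% of all genes were: TNIK with a span of 1.92 on the log2 scale (edgeR adjusted p 2.16e-07), HTR7 with 1.89 (edgeR adjusted p 3.17e-09), VGF with 1.55 (edgeR adjusted p 9.04e-09), CNTNAP3B with 1.41 (edgeR adjusted p 2.35e-07), PDLIM5 with 1.27 (edgeR adjusted p 2.16e-07) and PPP3CA with 0.62 (edgeR adjusted p 0.000242). PKIB had a span of 0.71 and an edgeR adjusted p of 0.0939, which became 9.41e-05 with the replicate number as a block. Without the G6 control libraries the same 6 passed, with spans of 0.57 for PPP3CA to 1.88 for HTR7 and TNIK. PPP3CA did not pass without F6 (edgeR adjusted p 0.337), TNIK without G6 (0.332) or VGF without B7 (0.173).

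Counted per clone, both DMSO libraries lay below all 4 parental libraries for 7 of the 7 genes in each of A3, E4 and D12, the clones on which the genes were chosen to be lower. In F6 this held for 5 genes (PDLIM5, PPP3CA, TNIK, HTR7 and CNTNAP3B), in B7 for 4 (TNIK, PKIB, CNTNAP3B and VGF) and in G6 for 0. The measure takes both replicate numbers together. Within each number PKIB was below both parental libraries in every IGF2BP2 knockout library, those of F6 and G6 included. The share of all genes for which that holds was not computed. Above all parental DMSO libraries were VGF in F6, HTR7 in B7, and PDLIM5 and VGF in G6, or 1, 1 and 2 of the 7, where 12.8%, 14.3% and 5.91% of all genes were above. Among all 14568 genes, the share below all parental DMSO libraries by this measure was 12.9% in F6, 12.8% in B7 and 7.63% in G6. It was 10.2% in A3, 14% in E4 and 10.3% in D12. The parental DMSO libraries helped choose the members, so the DMSO counts are not independent of the choice. In tunicamycin the counts of genes below were again 5 in F6, 4 in B7 and 0 in G6, with 11.9%, 13.4% and 9.12% of all genes below. All 7 were below in each of A3, E4 and D12, with 7.01%, 11.3% and 10.3% of all genes below. Above all parental tunicamycin libraries were HTR7 in B7, PDLIM5 and HTR7 in G6 and 0 members in F6, where 12.4%, 8.35% and 11.5% of all genes were above. F6 and B7 carry the same guide, and their patterns differed in sign for HTR7: the mean log2 CPM was below that of parental cells by -1.07 in F6 and above it by 0.77 in B7.

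**Figure D3:**
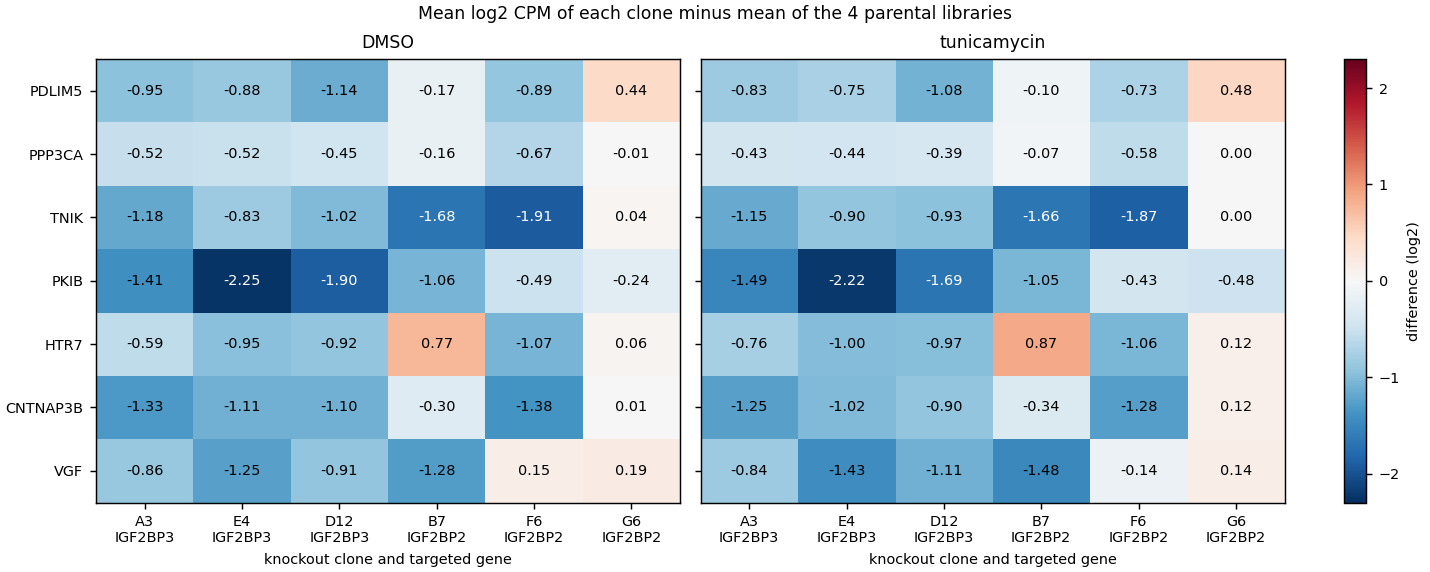
Mean log2 CPM of each clone minus the mean of the 4 parental libraries of the same treatment, by member and clone, with the value in each cell; blue is lower and red higher than parental. Columns A3, E4 and D12 are blue throughout, F6 is blue for all but VGF in DMSO (0.15), B7 combines low TNIK, PKIB and VGF with HTR7 higher by 0.77 in DMSO, and G6 is near 0 or above for all but PKIB.

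As a group, the IGF2BP2 knockout did not separate from parental cells for these genes in the edgeR test. In DMSO 0 of the 7 genes were called, where 0.0137% of all genes were called lower; the unadjusted p was under 0.05 for 690 genes. The log2 fold changes ran from -0.90 (SE 0.408) for TNIK to 0.11 (SE 0.328) for HTR7, with edgeR adjusted p values of 0.983 to 0.994. In tunicamycin 0 of the 7 were called, where 0.00694% of all genes were called lower and 1005 had an unadjusted p under 0.05, and the changes ran from -0.93 (SE 0.395) for TNIK to 0.19 (SE 0.344) for HTR7. Without clone G6, TNIK was called in both treatments, at -1.79 in DMSO (edgeR adjusted p 0.00143) and -1.77 in tunicamycin (edgeR adjusted p 0.0024). In DMSO that fit leaves out the G6 control libraries with the conflicting label. In it the other members stayed uncalled, from -0.75 for CNTNAP3B (edgeR adjusted p 0.291) to 0.13 for HTR7 (edgeR adjusted p 0.945), and PDLIM5 was at -0.48 (edgeR adjusted p 0.348). The contrasts of the 2 knockouts with parental cells share the parental libraries. Those in DMSO helped choose the genes, so the DMSO values and p-values here are not independent of the choice. A missed threshold with clones this unlike does not show that IGF2BP2 knockout leaves these genes at the parental level.

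Set against each other in tunicamycin, the IGF2BP3 and IGF2BP2 knockout groups differed for 1 of the 7 genes, PKIB (-1.17, SE 0.219, edgeR adjusted p 0.0322), where 0.270% of all genes were called lower. The next were PDLIM5 at -0.86 (SE 0.195, edgeR adjusted p 0.0705), which was called with the replicate number as a block (edgeR adjusted p 0.0485), and HTR7 at -1.09 (SE 0.294, edgeR adjusted p 0.111). TNIK did not differ in this fit (-0.08, SE 0.332), and without G6 it was higher in the IGF2BP3 knockout by 0.75 (edgeR adjusted p 0.0237). The number of genes called ranged from 0 to 5 when clones were left out in turn, with 5 called without F6. PKIB was lost in 4 of the 12 alternatives, with an edgeR adjusted p of 0.39 when the libraries of a line were summed.

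Tunicamycin itself moved these genes little, although it changed much of the transcriptome. In parental cells 0 of the 7 were called, where 14.3% of all genes were called lower and 12.5% higher, and the log2 changes ran from -0.21 (SE 0.083) for PDLIM5 to 0.19 (SE 0.079) for VGF. These tests, like those in IGF2BP3 knockout clones, include the DMSO libraries on which the genes were chosen. In the parental cells 2 more passed with the replicate number as a block: PDLIM5 at -0.21 (edgeR adjusted p 0.000212) and VGF at 0.19 (edgeR adjusted p 0.0266). In IGF2BP3 knockout clones 2 of 7 were called, where 17.6% of all genes were lower and 16.2% higher: PDLIM5 at -0.10 (SE 0.036, edgeR adjusted p 0.0442) and CNTNAP3B at 0.27 (SE 0.089, edgeR adjusted p 0.0299). At least 1 of these 2 calls was lost whenever a clone was left out, both without D12 or E4, and both without the filter on low counts. With the replicate number as a block HTR7 was called as well, at -0.16 (edgeR adjusted p 0.0161). In IGF2BP2 knockout clones 1 of 7 was called, CNTNAP3B at 0.20 (SE 0.074, edgeR adjusted p 0.0385), where 20.9% were lower and 19.2% higher; without the G6 control libraries 0 were called (CNTNAP3B 0.17, edgeR adjusted p 0.205). With the replicate number as a block PDLIM5 was called there too, at -0.12 (edgeR adjusted p 0.00429).

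Related genes were followed in 8 lists with 102 genes that are not members, of which 64 passed the filter on low counts in the DMSO contrast. In IGF2BP3 knockout against parental cells in DMSO 4 of these 64 were called lower and 0 higher, with a list median of -0.03 on the log2 scale beside 0.00 over all genes tested. In tunicamycin 5 of 64 were called lower and 0 higher. Of all genes tested 1.10% were called lower and 0.515% higher in DMSO, and 0.602% and 0.116% in tunicamycin. The lists were chosen with earlier results of these data known, so their counts are not independent of those results. CNTNAP3 and CNTNAP3C, near copies of the member CNTNAP3B, were among the called genes in both treatments. Of the protein kinase A list 1 of 14 was called, PRKACB, a catalytic subunit of the kinase that PKIB inhibits. It averaged 256 ± 20 CPM (SD, n = 4) in parental and 191 ± 13.4 CPM (SD, n = 6) in IGF2BP3 knockout libraries in DMSO, a log2 change of -0.42 (SE 0.057, edgeR adjusted p 0.00251), and of -0.48 in tunicamycin (edgeR adjusted p 0.0344). The DMSO call was lost in 1 of 13 alternatives, the fit of all 32 libraries (edgeR adjusted p 0.386), and the tunicamycin call in 7 of 13. PRKACB also stood above all parental DMSO libraries in B7 (356 CPM) and G6 (319 CPM) and below them in F6 (200 CPM), with B7 highest and F6 lowest as for HTR7. The other inhibitors of the kinase, PKIA (-0.01, edgeR adjusted p 0.993) and PKIG (-0.05, edgeR adjusted p 0.888), did not pass.

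Of the calcineurin and NFAT list 0 of 10 were called, and the other catalytic subunits stood at -0.15 for PPP3CB (edgeR adjusted p 0.261) and 0.11 for PPP3CC (edgeR adjusted p 0.687). Of the germinal centre kinases and TNIK partners 0 of 9 were called, with -0.04 for MAP4K4 (edgeR adjusted p 0.742) and 0.10 for MINK1 (edgeR adjusted p 0.334), the kinases closest to TNIK. Of the PDZ-LIM scaffold family 0 of 5 were called, with -0.18 for PDLIM7 (edgeR adjusted p 0.123). Of the serotonin receptors and adenylyl cyclases 0 of 9, and of the granins and prohormone processing genes 0 of 3, were called.

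The contactin-associated proteins differed from the other lists in that 2 of 4 were called lower, CNTNAP3 and CNTNAP3C, both near copies of CNTNAP3B. CNTNAP3 averaged 15.6 ± 0.898 CPM (SD, n = 4) in parental and 6.53 ± 2.13 CPM (SD, n = 6) in IGF2BP3 knockout libraries in DMSO, a log2 change of -1.27 (SE 0.179, edgeR adjusted p 0.00329) that missed the threshold at 0.065 when the libraries of a line were summed. CNTNAP3C, with 5 to 31 counts per DMSO library in these groups, changed by -1.74 (SE 0.282, edgeR adjusted p 0.00648). Reads shared between these copies cannot be assigned from the deposited counts.

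Among CREB target genes other than VGF, 1 of 11 was called lower in DMSO: NR4A2, an orphan nuclear receptor, at -0.57 (SE 0.132, edgeR adjusted p 0.0455), a call lost in 8 of 13 alternatives. In tunicamycin against DMSO in parental cells, where 12.5% of all genes were called higher and 14.3% lower, 8 of the 12 tested genes of the list were called higher and 3 lower, with 2.16 for FOSB (edgeR adjusted p 7.37e-07), 1.79 for DUSP1 (edgeR adjusted p 3.57e-06), 1.77 for FOS (edgeR adjusted p 8.83e-06) and 1.73 for PER1 (edgeR adjusted p 1.58e-08). VGF, at 0.19, was not among the called genes in that fit. Of the serotonin receptors and adenylyl cyclases 5 of 9 were called lower and 1 higher, with -0.55 for ADCY6 (edgeR adjusted p 0.00773), -0.39 for ADCY9 (edgeR adjusted p 0.0117), -0.21 for ADCY3 (edgeR adjusted p 0.0142) and -0.44 for HTR1D (edgeR adjusted p 0.0471). HTR7 was at -0.06 (SE 0.056) and was not called, and the HTR1D call was lost in 11 of 14 alternatives.

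In the same contrast, with the same 12.5% and 14.3% of all genes called, the calcineurin list had 1 of 10 genes called higher, PPP3R1, the regulatory subunit, at 0.43 (edgeR adjusted p 0.00169), and 1 lower, NFATC1, at -0.53 (edgeR adjusted p 0.00169). PPP3CA was at -0.05 (SE 0.084). Of the 9 TNIK partners, NCK1 was called higher at 0.42 (edgeR adjusted p 0.00216) and TRAF2 at -0.67 (edgeR adjusted p 0.000219) and MINK1 at -0.29 (edgeR adjusted p 0.00122) lower. Of the 14 genes of the protein kinase A list, ATF1 was called higher at 0.33 (edgeR adjusted p 0.0127), and CRTC3 at -0.26 (edgeR adjusted p 0.00868) and PRKACB at -0.26 (edgeR adjusted p 0.0061) lower.

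**Figure D4:**
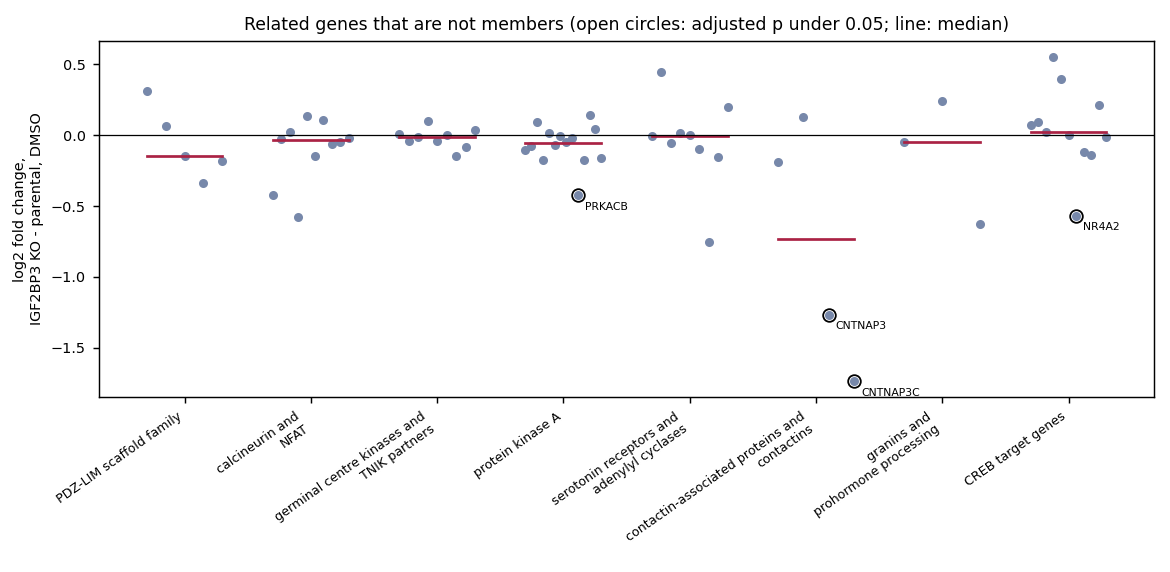
Log2 fold change between IGF2BP3 knockout and parental DMSO libraries for the 64 tested genes of the 8 related lists; each point is a gene, the red line is the median of its list and an open circle marks an adjusted p under 0.05. Circled are PRKACB, CNTNAP3, CNTNAP3C and NR4A2, all lower, and the other points scatter around 0.

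How the members vary together was described over the 16 means of line and treatment, which share their lines and parental cells, so that each r is a description of 16 points that are not independent. The points include the means on which all 7 genes were chosen to be lower, and those of the same clones in tunicamycin, so a positive r between members is partly set by the choice. Over the 21 pairs of members Pearson's r of mean log2 CPM ran from 0.061 for HTR7 and VGF to 0.966 for PPP3CA and CNTNAP3B, with a median of 0.646. PPP3CA, CNTNAP3B and PDLIM5 formed the closest trio, with r of 0.896 between PDLIM5 and PPP3CA and 0.880 between PDLIM5 and CNTNAP3B. VGF was closest to PKIB, with r of 0.850.

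Of 12709 genes with a mean of at least 1 CPM, the 3 most like PDLIM5 were SEMA3A (r 0.956), DNMBP (r 0.896) and PPP3CA. SEMA3A, a secreted guidance cue, shows the pattern with a larger range: 46.0 ± 9.96 CPM (SD, n = 4) in parental and 1.73 ± 0.957 CPM (SD, n = 6) in IGF2BP3 knockout libraries in DMSO. Most like PPP3CA were CNTNAP3B, FLJ20021 (r 0.954) and ILDR2 (r 0.939), and most like CNTNAP3B were PPP3CA, TSPAN5 (r 0.945) and CNTNAP3P2 (r 0.943). GLUD1 (r 0.931), LIX1L (r 0.902) and NRP1 (r 0.877) were most like TNIK, and SESN3 (r 0.953) and UBTD2 (r 0.913) were among the 3 most like HTR7. For PKIB the genes were HES4 (r 0.923), VMA21 (r 0.922) and ABHD10 (r 0.899), and for VGF they were GCA (r 0.933), DKK1 (r 0.927) and FUT8 (r 0.924).

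PDLIM5 and PPP3CA lie on chromosome 4, 6.36 Mb apart, and the tested genes around each member were read in the same contrast. Of the 13 tested genes between PDLIM5 and PPP3CA, 0 were called lower in IGF2BP3 knockout DMSO libraries, and their median log2 fold change was 0.06. The values ran from -0.47 to 0.49, and 5 of the 13 were below 0. Among these 5 was TSPAN5, named above as similar to CNTNAP3B, at -0.23 (edgeR adjusted p 0.0966). In clone F6, which was low for PDLIM5 and PPP3CA, the median difference of these 13 genes from parental cells was 0.06. The medians of the 10 nearest tested genes ran from -0.20 around CNTNAP3B to 0.06 around PDLIM5. The stretch that held these genes ran from 0.362 Mb around VGF to 23.4 Mb around CNTNAP3B. These counts do not measure DNA copy number.

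Among the genes called lower within the 5 nearest tested genes on a side of a member were FLJ20021, CNTNAP3C and MAN1A1. This nearness is one of gene order. CNTNAP3C lies at chr9:61330717-61453030, next to CNTNAP3B only because no gene between them was tested. FLJ20021 is a noncoding gene on the other strand that overlaps the start of PPP3CA by 499 bases, at -0.88 (edgeR adjusted p 0.0111). Its mean count was 92.9, against 4615 for PPP3CA, and without strand the reads of the overlap cannot be told apart. Whether strand was used in counting is not given, and the FLJ20021 call was lost in 2 of 13 alternatives. MAN1A1, a Golgi mannosidase at chr6:119177209-119349761 and the fifth tested gene before PKIB, was at -0.71 (edgeR adjusted p 0.00553, and 0.0727 with the libraries of a line summed). Other genes that overlap PPP3CA, TNIK, PKIB or CNTNAP3B had a mean count of at most 1.56.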

How the data were processed

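The deposited file is one table of whole-number counts per gene for 32 libraries. Per the labels' protocols, poly(A) RNA was turned into strand-marking libraries and read from both ends; per the submitters' processing notes, STAR 2.7.5c and the build hg38 were used. The counting tool, the annotation and the use of strand are not given in the sources used here. The members and the related gene lists were chosen with earlier results of these data known. Groups were taken from the sample titles, and all 32 columns matched a sample.

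Counts were fitted per comparison with edgeR 4.0.16 (R 4.3.3): filterByExpr, TMM, and the quasi-likelihood test over all genes that passed, called at a Benjamini-Hochberg adjusted p under 0.05. Genotype comparisons used the libraries of the 2 groups without a covariate, treatment comparisons had the line as a term, and clone comparisons the treatment. CPM values were normalized over all 32 libraries, and log2 CPM used a prior count of 2. All 7 members passed the filter in every comparison, which a gene low in 1 group can do through the other. The SE is the one implied by the F statistic. The fits were tested on simulated data. Genes named beside the members were the called list genes with the largest change and a mean count of at least 50 (up to 4 per list), the closest paralogs, the 3 most similar genes per member and called neighbours; CNTNAP3C is also named as a called neighbour with a lower count. Some genes that this rule names are not reported here.

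Of 60616 base identifiers 58385 were in GENCODE 29 and 38643 had the same version there. Promoters were matched by symbol to the RefSeq table. Alternatives were DESeq2 1.42.0, its size factors in edgeR, no filter, the replicate block, libraries of a line summed, all 32 libraries in one fit, a fit without the G6 controls, and fits that omit 1 clone or 1 parental library at a time. Figures were drawn with matplotlib 3.10.9.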

Additional observations from a re-analysis of the deposited data

Results flagged for a closer look

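In 42 sets of libraries (7 genes in 6 groups) the highest and lowest library were set against the spread of the group with Dixon's criterion. Chance marks about 1 in 20 sets, and 2 were marked. PPP3CA in IGF2BP3 knockout libraries under tunicamycin had its highest value, 204.7 CPM, in D12 replicate 1, with the next at 188.7 CPM. CNTNAP3B in IGF2BP3 knockout DMSO libraries had its lowest value, 5.788 CPM, in A3 replicate 2, with the next at 7.778 CPM. Both values lie on the same side of all parental libraries as the rest of their group.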

How the results depend on the processing

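All 7 members kept their direction and their call in tunicamycin, IGF2BP3 knockout against parental cells, under every alternative but the fit of all 32 libraries, in which 4 were called (7 without any clone or parental library). For IGF2BP2 knockout against parental cells the 0 calls became 1 without the G6 controls in DMSO, and the omission of 1 clone or library gave 0 to 1 in each treatment. For IGF2BP3 against IGF2BP2 knockout in tunicamycin, 1 member was called, against 2 with the replicate block, 3 with DESeq2, without a filter and in the fit of all libraries, 0 with summed libraries, and 0 to 5 with 1 clone omitted (0 without D12 or E4, 5 without F6). There TNIK ran from -0.39 to 0.75 on the log2 scale with 1 clone omitted, and its sign turned at 0.75 without G6; only the removal of that clone differs in this fit. For tunicamycin in parental cells the 0 calls became 2 with the replicate block and with summed libraries, 1 without a filter and 0 to 1 with 1 library omitted. In IGF2BP3 knockout clones the 2 calls became 1 with DESeq2 size factors and in the fit of all libraries, 0 without a filter and 0 to 1 with 1 clone omitted. In IGF2BP2 knockout clones the 1 call became 2 with the replicate block, 3 with summed libraries, 0 in the fit of all libraries and without the G6 controls, and 0 to 1 with 1 clone omitted. Between IGF2BP3 knockout clones the 3 calls became 5 with the replicate block, without a filter and with summed libraries, and 0 to 2 with 1 clone omitted. Where not stated, the cause was not tested.

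Counts over all genes moved more. For IGF2BP3 knockout against parental cells in DMSO 235 genes were called, against 513 with the replicate block, 507 with DESeq2, 427 without a filter, 47 with summed libraries, 72 in the fit of all libraries and 82 to 274 with 1 clone or library omitted. In tunicamycin the 105 calls became 333, 271, 185 and 34 under the first 4 of these and 29 to 113 with an omission. For IGF2BP2 knockout 2 genes were called in DMSO, against 12 with DESeq2, 1 with summed libraries and in the fit of all libraries, 47 without the G6 controls and 1 to 47 with an omission; in tunicamycin 1 was called, against 3 with DESeq2, 0 with summed libraries and 1 to 46 with an omission. For IGF2BP3 against IGF2BP2 knockout in tunicamycin the 55 calls became 214 with the replicate block, 379 with DESeq2, 191 without a filter, 1 with summed libraries, 423 in the fit of all libraries and 9 to 218 with a clone omitted. Tunicamycin in parental cells gave 3854 calls, against 5989 with the block and 5889 with summed libraries, and in IGF2BP3 knockout clones 4820, against 3174 to 4207 with a clone omitted. Between IGF2BP3 knockout clones 1089 became 2080 with the block, 3196 with summed libraries and 194 to 1326 with a clone omitted, and between IGF2BP2 knockout clones 3729 became 5844 with the block and 1564 to 2820 with a clone omitted.

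The replicate number had an effect shared across lines. The difference between replicate 1 and replicate 2 was taken for each line and treatment. Of 120 pairs of such differences 119 were correlated above 0.1 (0.082 to 0.548, median 0.371). The second principal component, with 15.2% of the variance, followed the replicate number (r -0.934). The main fits leave the number out, and it enters as a block in an alternative. Each clone is 1 line and each had 2 libraries per treatment, which limits what the genotype comparisons can resolve, and PKIB, CNTNAP3B and CNTNAP3C rest on few counts.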
